A study of Mus musculus with 16 samples.

Results

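The genes described here are 7 markers of the glia that support neurons: S100b, Slc1a2, Fgfr3 and Aqp4 for astrocytes, and Gsn, Mag and Mal for oligodendrocytes, the cells that make myelin. They are 7 of the 9026 genes with a name in the table and were taken by symbol, with 10 probes in all: 4 for Slc1a2 and 1 for each of the other 6 members. The values came from the brain and the liver of 4 male C57BL/6J mice, 18 weeks old and of genotype HdhQ111/+. They carry 1 copy of HdhQ111, a knock-in allele that lengthens the CAG repeat of Htt, the huntingtin gene, at its own locus. Each mouse's RNA was hybridised with a pool of RNA from 4 wildtype C57BL/6J males of that age and tissue, on 2 arrays with the dyes swapped, which gave 8 arrays per tissue and 16 in all. The labels give the tissue as brain, with no region, and the same mice gave both tissues. The pool is 1 control sample in each tissue, shared by all 4 mutant mice, so no test here holds the spread among wildtype mice.

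All values are log2 ratios, likely of mutant over wildtype, so a value above 0 means likely more RNA in the mutant mouse. That direction rests on the order of the channels in the labels, and base 2 was assumed, since no header states either. A mouse's value is the mean of its dye-swapped pair. Ratios carry no level, so neither the order of the genes by expression nor the tissue labels could be checked against marker levels. In a whole tissue, fewer cells of a type and less RNA per cell cannot be told apart. Arrays held 19530 to 20584 values, and their medians ran from -0.128 to 0.246, the highest being the brain array of mouse 3 with its RNA in Cy5. The gene names sit 11 rows from the values. Over probe pairs of one gene at least 50 rows apart, Spearman's rho across the 16 arrays averaged 0.109 at offset 11 (3059 pairs), 0.0464 at offset 0 (2680 pairs) and at most 0.0535 at the other offsets among 121. No source states the offset, and each member's identity rests on it.

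Astrocytes clear glutamate and potassium from the space around synapses and regulate water at the blood vessels, and they change shape and gene expression when the brain is injured or ill. Oligodendrocytes wrap axons in myelin, a stack of membrane rich in lipids and in a small set of proteins. Both cell types have been studied in Huntington's disease, in which striatal neurons degenerate, and astrocytic glutamate uptake and myelin genes are often examined in its mouse models.

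In brain, S100b had the highest mean of the members and was above 0 in all 4 mice, while Slc1a2, Fgfr3 and Aqp4, the other astrocyte members, averaged below 0, and the 3 oligodendrocyte members averaged slightly above it. None passed limma's test after adjustment over all probes. Of the 10 probes, 4 had a mean above 0 and 6 below, against 55.2% and 44.8% of all probes. Among the 10, 1 had an unadjusted p under 0.05, against 3.50% of the 19325 probes tested, and 0 of the 19325 passed limma's test at an adjusted p of 0.05. In liver, 8 of the 10 probes could be tested, 5 with a mean above 0 and 3 below, against 46.4% and 53.6% of all probes. There 0 of the 8 had an unadjusted p under 0.05, a mark reached by 1409 of all 20127 probes tested, of which 0 passed after adjustment. An exact sign-flip test on 4 mice cannot give a two-sided p below 0.125.

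**Figure D1:**
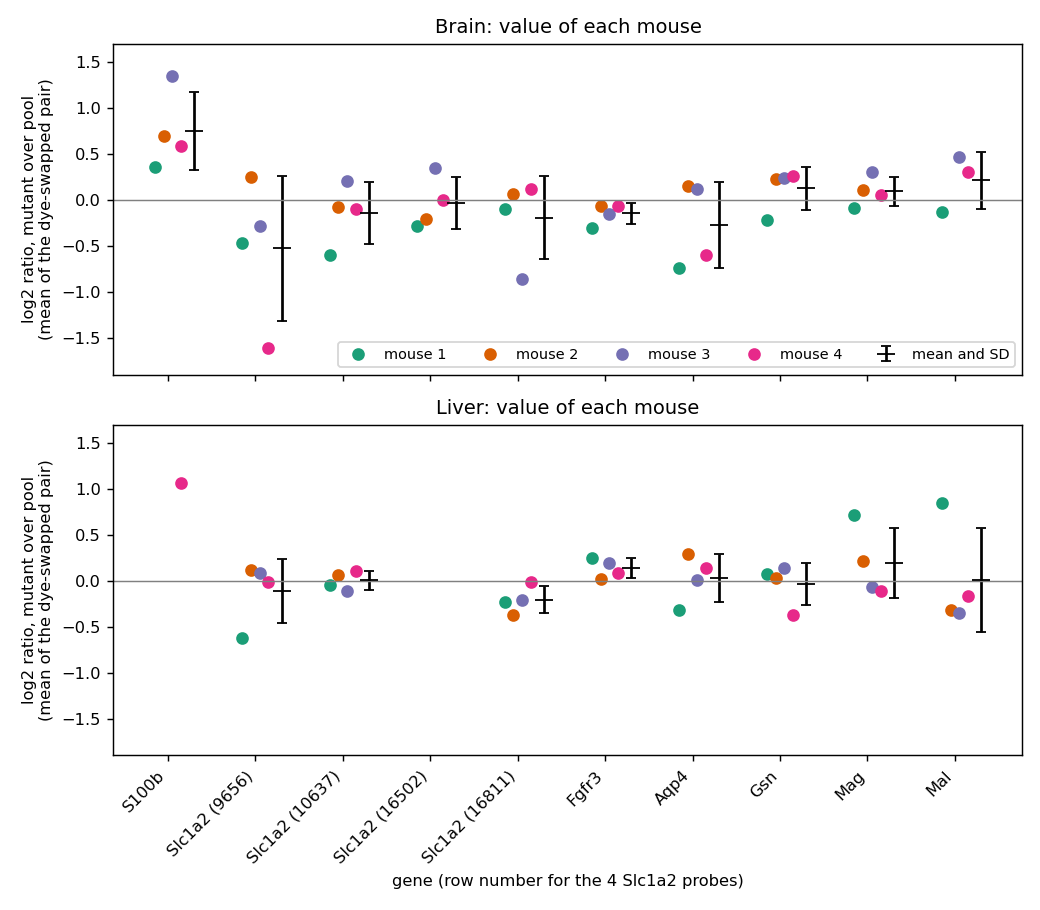
Log2 ratio of each mouse (mean of its dye-swapped pair, coloured points) for the 10 probes of the 7 members in brain (top) and liver (bottom), with the mean and SD over mice in black where at least 3 mice had a value. S100b is above 0 in all 4 mice in brain and has a value for 1 mouse in liver, and the Fgfr3 points lie below 0 in brain and above 0 in liver.

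S100b encodes a small calcium-binding protein of astrocytes and of some oligodendrocytes, which is also secreted. The gene lies on chromosome 10 at 76253836-76261319 (RefSeq, GRCm38.p6, as for the other genes). Its brain values were 0.36, 0.69, 1.35 and 0.58 in mice 1 to 4, all above 0, and mouse 3 was the highest. The mean was 0.75 ± 0.43 (SD, n = 4), or 1.68-fold, with a 95% interval of 0.26 to 1.24 from limma (unadjusted p = 0.0111, adjusted p = 0.998). Every mouse lay above 0 for 6.78% of all probes tested, and 2.23% of them had a higher mean. The orientations differed: the arrays with the mutant RNA in Cy5 gave 1.42, 1.69, 1.08 and 1.23, and those with it in Cy3 gave -0.69, -0.30, 1.62 and -0.066. All 4 Cy5 arrays were thus above 1, whereas on the Cy3 arrays mouse 3 alone was above 0, so the means were 1.36 and 0.14. A dye difference larger than that of S100b was found for 13.3% of probes, and its part in the S100b value was not tested. Without mouse 3 the mean was 0.55.

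In liver the S100b probe had no value on 4 of its 8 arrays. The others were 16.66 in mouse 2 with mutant RNA in Cy5, -0.046 in mouse 4 in Cy5, and 1.27 and 2.19 in mice 3 and 4 in Cy3. The value of 16.66 is 1 of 1496 ratios beyond 10 in size in the table, of which the 769 on Cy5 arrays were all above 0 and the 727 on Cy3 arrays all below 0. How these ratios arose was not tested, and no other value of the members was beyond 10. Only mouse 4 had both arrays, with a pair mean of 1.07, and no test was possible. A row with at least 4 empty arrays was found for 1.05% of named rows in liver.

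Slc1a2 encodes GLT-1, the main glutamate transporter of astrocytes, on chromosome 2 at 102658239-102790784. It had 4 probes, all with a brain mean below 0, but none of them lay below 0 in every mouse. The probe at row 9656 had -0.46, 0.26, -0.28 and -1.61 in mice 1 to 4, with a mean of -0.52 ± 0.79 (SD, n = 4). Mouse 4 was far below the others there, through a single Cy3 array at -3.35, and without mouse 4 the mean was -0.16. The probe at row 10637 had -0.60, -0.074, 0.21 and -0.097, with a mean of -0.14 ± 0.34 (SD, n = 4) and mouse 1 lowest. That at row 16502 had -0.28, -0.21, 0.35 and 0.0030, with a mean of -0.032 ± 0.28 (SD, n = 4) and the mice on both sides of 0. The fourth, at row 16811, had -0.094, 0.071, -0.86 and 0.12, with a mean of -0.19 ± 0.46 (SD, n = 4). Here mouse 3 was the low one, again through 1 Cy3 array, at -2.48, and without mouse 3 the mean was 0.033.

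The Slc1a2 probes share a gene and are not replicates, and they did not order the mice alike. Over the 8 brain arrays, Pearson's r between the 6 pairs of probes ran from -0.29 to 0.59, as a description. With the 4 probes averaged, the mice had -0.36, 0.012, -0.14 and -0.40 in brain, with a mean of -0.22 ± 0.19 (SD, n = 4) and a 95% interval of -0.52 to 0.082 (limma adjusted p = 0.999). On the Cy5 arrays alone, the probe at row 9656 alone had a mean below 0, -0.13, from arrays at -1.45, 0.63, 0.18 and 0.13, of which mouse 1 alone was below 0. The others stood at 0.033, 0.096 and 0.42. On the Cy3 arrays all 4 were below 0, at -0.92, -0.31, -0.16 and -0.81 in row order.

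In liver, 6 of the 8 arrays were empty for the Slc1a2 probe at row 16502, which therefore had no pair mean. The other 3 probes had values on all arrays. The probe at row 16811 was below 0 in all 4 mice, with -0.23, -0.37, -0.21 and -0.0090 and a mean of -0.20 ± 0.15 (SD, n = 4) (limma adjusted p = 0.636); every mouse was below 0 for 12.7% of probes in liver. Means at rows 9656 and 10637 were -0.11 ± 0.35 (SD, n = 4) and 0.0073 ± 0.10 (SD, n = 4), with mice on both sides of 0.

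Fgfr3 encodes a receptor for fibroblast growth factors, found in the brain mainly on astrocytes and their precursors. Its brain values were -0.31, -0.062, -0.15 and -0.064, all below 0, with mouse 1 the lowest. The mean was -0.15 ± 0.12 (SD, n = 4), with a 95% interval of -0.43 to 0.14 (limma adjusted p = 0.998). Its SD was among the smaller ones, with 94.2% of probes having a larger SD. Every mouse lay below 0 for 5.70% of probes in brain. The Cy3 arrays carried the lower values, with -0.40, -0.18, -0.35 and -0.21, all below 0. The Cy5 arrays had -0.22, 0.055, 0.053 and 0.078, of which 3 were above 0.

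In liver, Fgfr3 was above 0 in all 4 mice, with 0.26, 0.018, 0.20 and 0.084 and a mean of 0.14 ± 0.11 (SD, n = 4) (limma adjusted p = 0.641), against 8.43% of probes with every mouse above 0. The arrays behind those means disagreed by dye in every mouse. With mutant RNA in Cy5 they gave -0.13, -0.73, -0.32 and -0.66, all below 0, and with it in Cy3 0.64, 0.77, 0.73 and 0.82, all above 0. A larger dye difference was found for 10.7% of liver probes. Fgfr3 lies on chromosome 5 at 33721724-33737068, 1.02 Mb from Htt, the gene that carries the knock-in allele.

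Aqp4 encodes aquaporin-4, the water channel of the astrocyte endfeet on blood vessels. The mice split in brain: values were -0.74, 0.15, 0.12 and -0.60 in mice 1 to 4, so mice 1 and 4 were low and mice 2 and 3 slightly above 0. The mean was -0.27 ± 0.47 (SD, n = 4), with a 95% interval of -0.80 to 0.26 (limma adjusted p = 0.998). It ran from -0.41 without mouse 2 to -0.11 without mouse 1. All 4 Cy3 arrays were below 0, at -0.63, -0.56, -0.084 and -0.63, and the Cy5 arrays, at -0.85, 0.87, 0.32 and -0.56, showed the split. In liver the values were -0.32, 0.29, 0.0085 and 0.14, with a mean of 0.033 ± 0.26 (SD, n = 4) and mouse 1 again the lowest.

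Among the oligodendrocyte members, Gsn encodes gelsolin, which severs and caps actin filaments and in the brain is abundant in oligodendrocytes (chromosome 2, 35256359-35307902). In brain its values were -0.22, 0.23, 0.24 and 0.26: mice 2 to 4 lay close together and mouse 1 apart, below 0. The mean was 0.13 ± 0.23 (SD, n = 4), with a 95% interval of -0.22 to 0.48 (limma adjusted p = 0.998). Gsn differed least by dye in brain, with means of 0.15 on the Cy5 arrays and 0.10 on the Cy3 arrays, and 93.7% of probes differed by more. In liver it differed far more, with -0.80, -0.36, -0.014 and -0.85 in Cy5, all below 0, and 0.95, 0.42, 0.29 and 0.11 in Cy3, all above 0. The pair means there were 0.077, 0.029, 0.14 and -0.37, with a mean of -0.030 ± 0.23 (SD, n = 4) and mouse 4 lowest.

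Mag encodes myelin-associated glycoprotein, a sialic-acid-binding protein of the innermost myelin layer that faces the axon (chromosome 7, 30899175-30914922). Brain values were -0.084, 0.11, 0.30 and 0.057, with mouse 1 below 0 and mouse 3 highest, and a mean of 0.096 ± 0.16 (SD, n = 4) with a 95% interval of -0.21 to 0.40 (limma adjusted p = 0.998). Its Cy5 arrays were all above 0, at 0.38, 0.40, 0.72 and 0.080, while on the Cy3 arrays, at -0.55, -0.18, -0.12 and 0.033, mouse 4 alone was above 0. In liver, mouse 1 was the highest, with values of 0.72, 0.22, -0.065 and -0.11 and a mean of 0.19 ± 0.38 (SD, n = 4). The Cy3 array of mouse 1 was at 1.45, and without mouse 1 the liver mean was 0.015. In brain the mean without mouse 3 was 0.027.

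Mal encodes a small membrane protein that takes part in sorting lipids and proteins into myelin and into the apical membrane of epithelia (chromosome 2, 127633226-127656695). In brain, mouse 2 had no value with its RNA in Cy5 and so no pair mean. The other mice had -0.13, 0.47 and 0.31 (mice 1, 3 and 4), with a mean of 0.21 ± 0.31 (SD, n = 3) and a 95% interval of -0.29 to 0.72 (limma adjusted p = 0.998). Mouse 1 was the lowest of these 3. The single array of mouse 2 was at -0.44, and with it the mean was 0.051, or 0.14 in a fit over all arrays with a dye term and the mouse as a random block. In liver, the Mal values were 0.85, -0.31, -0.35 and -0.16, so mouse 1 stood well above the other mice, through a Cy3 array at 1.90. The mean was 0.0071 ± 0.57 (SD, n = 4), and without mouse 1 it was -0.27.

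The members differed by dye orientation to unlike extents. In brain, 13.1% of all probes had a larger dye difference than Slc1a2 at row 16811, and 93.7% a larger one than Gsn. All 10 probes, 4 of them of Slc1a2, averaged higher there with mutant RNA in Cy5 than in Cy3, against 59.4% of all probes. Of the 10, 5 had Cy5 and Cy3 means of opposite sign, against 66.8% of all probes. The lean to Cy5 in brain was not particular to the members. Astrocyte genes other than the members had 25 of 31 above 0 on the Cy5 arrays and 8 of 32 on the Cy3 arrays. Neuron genes had 15 of 18 and 7 of 19. The choroid plexus, hepatocyte, S100 and gelsolin family lists described below leaned the other way, with a lower median on the Cy5 arrays. In liver, 4 of the 8 probes tested were higher in Cy5, against 53.8%, and 7 of the 8 had means of opposite sign, against 64.6%. S100b, Gsn, Aqp4, Fgfr3 and the Slc1a2 probe at row 9656 were thus the probes whose mean in brain had the same sign in both orientations, with single arrays on both sides of 0 in each of them. Empty arrays were few in brain, 1 of 80 for the 10 probes, and more frequent in liver, 10 of 80 or 12.5%, all of them in S100b and the Slc1a2 probe at row 16502. Over all named rows 3.61% were empty in brain and 2.36% in liver.

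**Figure D2:**
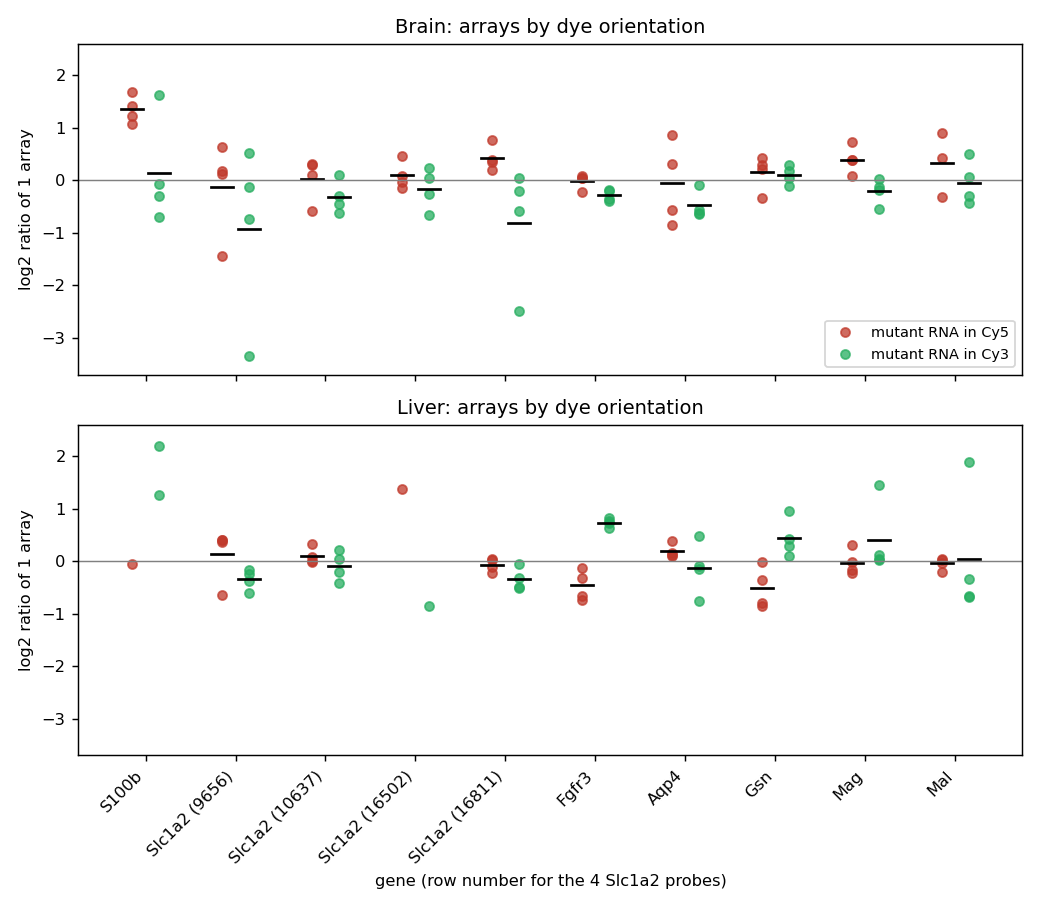
Log2 ratio of each array for the 10 probes in brain (top) and liver (bottom), with mutant RNA in Cy5 in red and in Cy3 in green; black bars are means of at least 3 arrays, and the S100b liver array at 16.66 lies outside the axis. The Cy5 arrays of S100b in brain are all above 1, and Fgfr3 and Gsn in liver have their Cy5 arrays below 0 and their Cy3 arrays above 0.

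In brain, mouse 1 was often the lowest mouse, and no mouse was regularly the highest. Mouse 1 was the lowest of the 4 for 7 of the 9 probes with all mice, against 42.8% of all probes, and mouse 3 was the highest for 4 of 9, close to the 43.7% of all probes. The array medians moved with this order: over all named genes the median was -0.10 in mouse 1 and 0.15 in mouse 3. With each array centred on its median, mouse 1 was still the lowest for 5 of 9 members' probes, against 29.9% of all probes, and mouse 3 the highest for 4 of 9, against 30.8%. Centring turned the sign of no member's brain mean, and S100b then stood at 0.73 ± 0.34. In liver no mouse was lowest for more than 2 of 8 probes.

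Liver served as the contrast, since astrocytes and oligodendrocytes are cells of the nervous system. No member's liver-minus-brain difference passed limma's test over all probes, where 1 of 19055 probes did (0.00525%). Fgfr3 came closest, with 0.29 (95% interval -0.018 to 0.59, adjusted p = 0.739) and a higher value in liver than in brain in 4 of 4 mice, by 0.56, 0.081, 0.35 and 0.15. The fit ignored the pairing of mice, and with the mouse as a block the standard error for Fgfr3 was 0.16 instead of 0.13. The direction of the Fgfr3 difference turned on the Cy5 arrays alone, where it was -0.45. Aqp4 differed by 0.30 (-0.28 to 0.88, 3 of 4 mice higher in liver). Gsn differed by -0.16 (-0.57 to 0.25, 1 of 4 higher), Mag by 0.096 (-0.38 to 0.57, 2 of 4 higher) and Mal by -0.21 (-0.98 to 0.56, 1 of 3 paired mice higher, since mouse 2 has no brain value, and -0.10 with the mouse as a block). The 3 Slc1a2 probes tested differed by 0.42, 0.15 and -0.013 at rows 9656, 10637 and 16811. Without mouse 4 the difference was 0.023 at row 9656, and without mouse 1 it was 0.010 at row 10637. Without mouse 4 it was -0.00067 for Gsn and 0.15 for Aqp4, and without mouse 1 it was -0.14 for Mag. The 95% intervals spanned 0 for every member's probe tested.

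The other markers of the same cell types lay on both sides of 0 in brain. Of 35 astrocyte genes measured, 19 were above 0 and 16 below, with a median of 0.014, and with the arrays centred the counts were 17 and 18. The dye orientations differed. On the Cy5 arrays alone 27 of 35 were above 0 (median 0.19), and on the Cy3 arrays alone 9 of 36 (median -0.13). All named genes had medians of 0.11 on the Cy5 arrays and -0.059 on the Cy3 arrays. By limma 0 of the 35 passed after adjustment and 1 had an unadjusted p under 0.05. The 8621 named genes tested had a median of 0.024, with 56.9% above 0 and 43.1% below, 0 past the test and 269 with an unadjusted p under 0.05. S100b ranked next to the highest of the 35. Above it was the urea transporter Slc14a1 (0.97 ± 1.43), which was 0.31 without ratios beyond 10 in size, and next came Ppp1r3c (0.50 ± 1.39, n = 3), a regulator of glycogen synthesis. The lowest were the metallothionein Mt3 (-1.08 ± 2.03, but -0.056 without ratios beyond 10), the chloride channel family member Ttyh1 (-0.53 ± 0.55) and Aqp4. Gfap, the intermediate filament gene that marks reactive astrocytes, stood at 0.014 ± 0.44, with mice from -0.47 to 0.48, and its sign turned with the arrays centred (-0.00038).

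Of 25 oligodendrocyte and myelin genes, 15 were above 0 and 10 below, with a median of 0.028, and 13 and 12 with the arrays centred. On the Cy5 arrays alone 17 of 25 were above 0 (median 0.097), and on the Cy3 arrays alone 8 of 25 (median -0.053). By limma 0 of the 25 passed after adjustment and 1, Olig2, had an unadjusted p under 0.05. Olig2 also had the highest mean. It encodes a transcription factor of the whole oligodendrocyte lineage and stood at 0.41 ± 0.23, above 0 in 4 of 4 mice. It was followed by Hapln2 (0.25 ± 0.74), a link protein of the nodes of Ranvier, and Mal on its 3 mice. The lowest were the protease Adamts4 (-0.44 ± 0.52) and the structural myelin genes Mobp (-0.12 ± 0.21) and Cnp (-0.11 ± 0.32). Mbp, which encodes myelin basic protein, was at -0.041 ± 0.070, the narrowest spread among the glial genes named here. Mog, Kcnj10 and Fgfr2 were not analysed here.

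**Figure D3:**
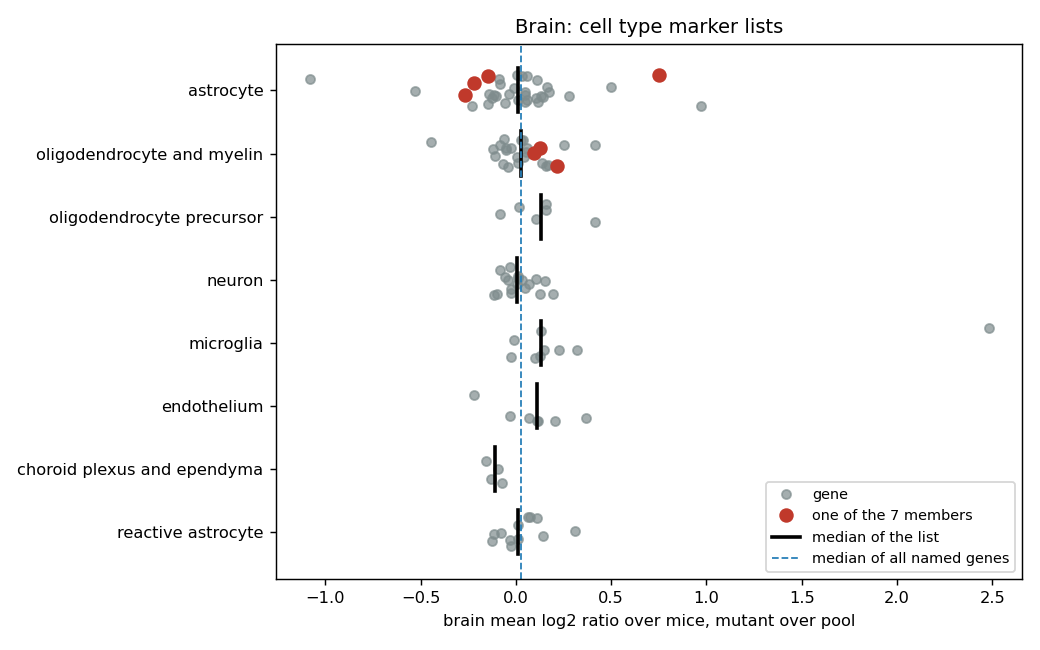
Mean log2 ratio over mice in brain of each gene (points, jittered in height) in 8 marker lists, with the list median as a black bar, the 7 members in red and the median of all named genes as a dashed line. S100b stands apart from the other astrocyte members, the list medians lie between -0.11 and 0.13, and the microglial gene at 2.48 is Laptm5.

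Within their own families and pathways some members had the highest or lowest mean of a list, in part by small gaps. The counts above 0 below stand beside 56.9% of all named genes above 0 in brain. S100b was the highest of 14 S100 genes, of which 10 were above 0 (9 with the arrays centred), with a family median of 0.063. On the Cy5 arrays alone 6 of the 14 were above 0, and on the Cy3 arrays alone 11. S100a1, a relative of S100b found in heart and neurons, was at 0.077 ± 0.17, and the neutrophil gene S100a8 was lowest at -0.25 ± 0.36. Fgfr3 was the lowest of 10 genes of FGF receptors and their signalling, 4 of them above 0, with Fgfr1 at -0.050 ± 0.22 and Fgfr4 highest at 0.70 ± 0.64 (n = 3). That list had 7 of 11 above 0 on the Cy5 arrays alone and 5 of 10 on the Cy3 arrays alone. Among 12 genes of glutamate uptake and the glutamine cycle, 4 were above 0. This list turned with the dye, with 10 of 12 above 0 on the Cy5 arrays alone and 2 of 13 on the Cy3 arrays alone. There the second astrocytic glutamate transporter Slc1a3 was at -0.057 ± 0.31, the neuronal transporter Slc1a1 highest at 0.19 ± 0.28, glutamine synthetase, Glul, at 0.18 ± 0.29 and the glutamine transporter Slc38a5 lowest at -0.47 ± 0.94. Without mouse 2, Slc38a5 was at -0.048, above the Slc1a2 mean of -0.22 over all mice.

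For Aqp4, the list of endfoot water and potassium genes had 5 of 9 genes above 0 (4 with the arrays centred) and a median of 0.0034. The list had 7 of 9 above 0 on the Cy5 arrays alone and 1 of 9 on the Cy3 arrays alone. Its lowest gene was Dmd, which encodes dystrophin, an anchor of the endfoot complex, at -0.85 ± 0.67 and below 0 in 4 of 4 mice, but at 0.90 on the Cy3 arrays alone. Its highest was Agrn (0.96 ± 2.00), which was -0.021 without ratios beyond 10. Of 3 gelsolin family genes measured in brain, Gsn was the highest with all ratios kept, Capg was at 0.080 ± 0.55, and Avil was at -1.33 ± 5.29, or at 1.26 without ratios beyond 10. Vil1 had 2 mice, at -0.024 and 0.056. Mal, on its 3 mice with both arrays, was the highest of 6 genes of the MAL and MARVEL family (4 above 0). With the single array of mouse 2 counted, it was no longer the highest. The lowest was Marveld1 (-2.43 ± 4.81, but -0.12 without ratios beyond 10). Mag was the highest of 8 Siglec and paranode genes (5 above 0) by a small gap, but was at -0.20 on the Cy3 arrays alone. On the Cy5 and the Cy3 arrays alone, 6 and 2 of these 8 genes were above 0. The MAL and MARVEL family had 4 and 3 of 6. Siglec1 of macrophages was the lowest (-0.33 ± 1.19). In these lists too 0 genes passed limma's test after adjustment. At an unadjusted p under 0.05 there was 1 gene each in the S100 and endfoot lists (S100b and Dmd) and 0 in the other 5.

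The list medians differed between the mice. In mouse 1 the astrocyte median was -0.25 and the oligodendrocyte median -0.20, and in mouse 3 they were 0.20 and 0.20. Mice 2 and 4 lay between, with 0.012 and 0.014 for astrocytes and -0.086 and 0.087 for oligodendrocytes. Neuronal genes (18 measured, 10 above 0, and 7 with the arrays centred) were at -0.22 in mouse 1 and 0.19 in mouse 3. With arrays centred, mouse 1 still had medians of -0.15, -0.10 and -0.13 for astrocyte, oligodendrocyte and neuron genes, and all named genes -0.0036. Mouse 2 had -0.089 for the oligodendrocyte list. Other lists lay on both sides of 0 in mouse 1 with the arrays centred. Endothelial genes (-0.080) and choroid plexus and ependymal genes (-0.10) were below 0. So were the lists of FGF receptors and signalling (-0.165), glutamate uptake (-0.12) and endfoot genes (-0.058). Above 0 were oligodendrocyte precursor (0.26), microglial (0.077), hepatocyte (0.094) and reactive astrocyte (0.061) genes. The part of the array medians in the members' order of mice was not tested beyond this centring.

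**Figure D4:**
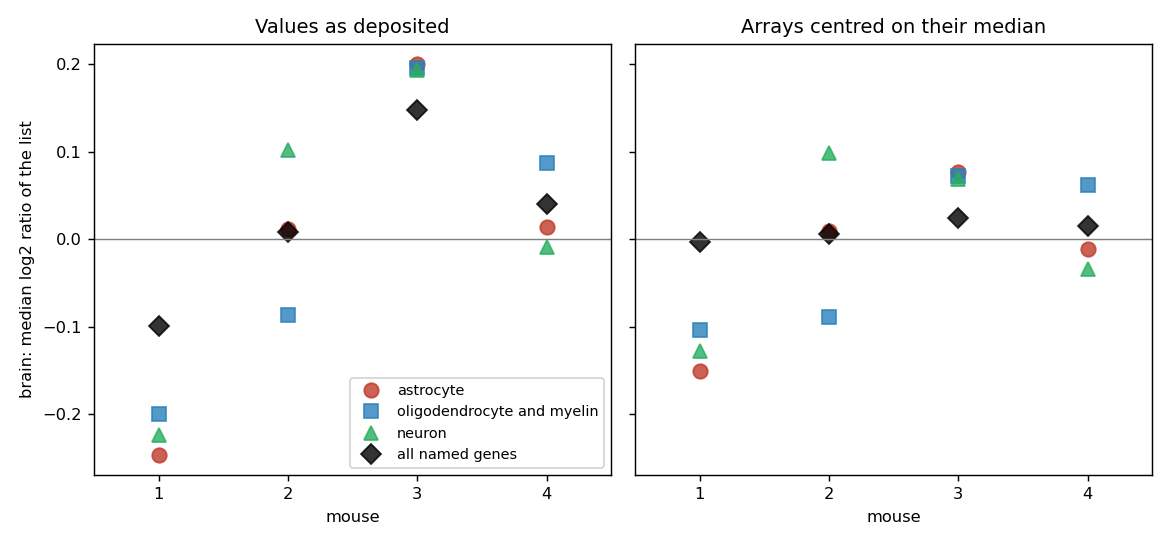
Median log2 ratio in brain of astrocyte, oligodendrocyte and myelin, neuron and all named genes in each mouse, as deposited (left) and with each array centred on its median (right). Mouse 1 is low and mouse 3 high for all lists on the left, and on the right mouse 1 stays below 0 for the 3 cell type lists while all named genes lie near 0.

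Markers of the other cells of the brain gave the following counts, beside 56.9% of all named genes above 0 in brain. Microglial genes had 7 of 9 above 0 and a median of 0.13, and their highest gene, the lysosomal Laptm5, was at 2.48 with mice from -0.21 to 8.01. Without ratios beyond 10 it was 0.64. Endothelial genes had 5 of 7 above 0 (median 0.11), oligodendrocyte precursor genes 5 of 6 (0.13), reactive astrocyte genes 7 of 12 (0.011, and 5 with the arrays centred), and choroid plexus and ependymal genes 0 of 4 (-0.11). Some precursor genes, Olig2 among them, are also in the oligodendrocyte list. The hepatocyte list shares genes with the choroid plexus and the oligodendrocyte lists, and the reactive astrocyte list with the astrocyte and S100 lists. Hepatocyte genes in brain had 4 of 11 above 0 (median -0.026). In liver, the astrocyte list had 20 of 34 genes above 0 and a median of 0.025, and the oligodendrocyte list 12 of 25 and -0.021, beside -0.031 for all named genes, of which 43.2% were above 0 and 56.8% below. Hepatocyte genes in liver had 1 of 11 above 0 (median -0.18), with all 11 above 0 on the Cy5 arrays and 0 above 0 on the Cy3 arrays. Apart from the members, the astrocyte list had 13 of 384 values empty in liver and 14 of 384 in brain.

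The genes most like each member over the 8 mouse values (4 brain and 4 liver, which share mice and pools) were found among 9679 named probes with complete values, and Pearson's r is given as a description. The highest of so many r over 8 values is large for unrelated probes too, and no background was computed. Aqp4 was most like Higd1b (r = 0.99) and Zc3h10 (r = 0.94), Mag like Rfng (r = 0.99) and Clstn2 (r = 0.98), Fgfr3 like Fasl (r = 0.97) and Pik3cd (r = 0.95), and Gsn like Ppp1cc (r = 0.95) and Armcx2 (r = 0.94). The Slc1a2 probes had different partners: Rab8a (r = 0.98) and Grik5 (r = 0.96) at row 9656, Tubb2b (r = 0.98) and Actl9 (r = 0.98) at row 10637, and Msra (r = 0.99) and Gbf1 (r = 0.98) at row 16811. S100b, Mal and the Slc1a2 probe at row 16502 lacked a value and were not compared.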

How the data were processed

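The authors deposited 1 log2 ratio for each of 20794 probes and 16 arrays. The scanner, background correction, normalization and base are not given in the sources used here. Per the labels' protocols, cDNA made from total RNA carried Cy3 or Cy5. The number of arrays limits the precision, and spot intensities were not analysed here. Platform symbols (12771 probes with 1 symbol, 0 with several) were updated through Entrez numbers to GRCm38.p6 and shifted by 11 rows, an offset found from the data, which named 12760 rows. The members and lists were chosen with earlier results of these data known.

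The arrays' orientation relative to each other was checked, which does not bear on the direction of all of them: dye differences of brain and liver correlated over 19055 probes (Spearman's rho 0.406) and pair means hardly did (-0.012), and no array was turned. Mouse values (both arrays required) were tested against 0 with limma 3.58.1 in R 4.3.3 (lmFit, eBayes, two-sided, at least 3 mice), with Benjamini-Hochberg adjustment over all probes at 0.05. The fits were tested on simulated data. The liver-minus-brain difference was fitted over the 8 mouse values. Same-numbered arrays come from the same mouse, so the mouse is a valid block. Brain and liver deviations of one mouse correlated by 0.0533, -0.0129, 0.0838 and 0.0199, and those of different mice by -0.0713 to 0.0599. These ranges overlap, so the correlations do not by themselves show which arrays share a mouse. For lists, probes of a gene were averaged. The rule for named genes took all probes of the members, the 3 highest and 3 lowest genes of the 2 glial lists, the highest and lowest of each other list, 12 further genes, and 2 most similar genes per member. Of the lists without a member, Laptm5 alone is named, and the rest is given by counts and medians. Alternatives changed the centring, scaling, ratios beyond 10 in size, pairing of arrays, dye orientation, row offset, minimum of mice, mice included and variance model.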

Additional observations from a re-analysis of the deposited data

Results flagged for a closer look

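Among 17 groups of 4 mice, a single mouse stood far from the other 3 in 2 groups by Dixon's test. For independent normal values about 1 in 20 groups would do so. The groups here share mice, and several are probes of Slc1a2. The share over all probes was not counted. Gsn in brain had mouse 1 at -0.22 and the others at 0.23 to 0.26, a gap of 0.941 of the whole range. Without mouse 1 its mean was 0.24. Mal in liver had mouse 1 at 0.85 and the others at -0.35 to -0.16, a gap of 0.842 of the range.

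Fgfr3 was below 0 in every mouse in brain and above 0 in every mouse in liver, with a difference of 0.29 that did not pass limma's test (adjusted p = 0.739, and 0.762 with the mouse as a block). Among all probes, every mouse lay below 0 for 5.70% in brain and above 0 for 8.43% in liver. The share with both was not counted. In liver, each mouse's Fgfr3 array was below 0 with its RNA in Cy5 and above 0 with it in Cy3.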

How the results depend on the processing

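The number of probes past limma's test in brain was 0 as reported, 1 with 1 array of a pair allowed, 2 on the Cy5 arrays alone, 4 with all arrays, a dye term and the mouse as a random block, and 0 to 1 without 1 mouse (1 without mouse 2). For the liver-minus-brain difference it was 1, or 2 without ratios beyond 10, 0 where all 4 mice were required, and 0 to 1 without 1 mouse (0 without mouse 3 or mouse 4). With the mouse as a replicate block, the pairing the design gives, it was 1, Fgfr3 had an adjusted p of 0.762, and the block changed no call of a member. The astrocyte list's median in liver was 0.14 on the Cy5 arrays, -0.13 on the Cy3 arrays and -0.056 with no row offset, and the oligodendrocyte list's ran from -0.014 to 0.082 without 1 mouse (highest without mouse 2). No member passed under any alternative run. Signal over background was not analysed here, so a ratio from dim spots and one from bright spots cannot be told apart, and the precision is limited by 4 mice and 1 pool per tissue. S100b in brain kept its sign under every alternative, but several of these could not turn it. All 4 mice were above 0, so leaving out 1 mouse cannot change the sign, and several other settings left the mean at 0.75. On the Cy3 arrays alone the S100b mean was 0.14, where mouse 3 alone was above 0. The cause of each change below was not tested. On the Cy5 arrays alone, the sign turned for Slc1a2 at row 10637 (0.033), Slc1a2 at row 16502 (0.096), Slc1a2 at row 16811 (0.42), Mt3 (1.72), Avil (1.76), Mbp (0.30), Slc1a3 (0.015), Fgfr1 (0.025) and Capg (-0.36) in brain, for Slc1a2 at row 9656 (0.13), Fgfr3 (-0.46), Mag (-0.023) and Mal (-0.039) in liver, and for Fgfr3 (-0.45) and Mag (-0.42) in the liver-minus-brain difference. On the Cy3 arrays alone, the sign turned for Mag (-0.20), Mal (-0.043), Slc14a1 (-0.096), Slc38a5 (0.52), Slc1a1 (-0.14), Dmd (0.90), Agrn (-0.18), S100a8 (0.37), Gfap (-0.12), Glul (-0.30) and Laptm5 (-0.70) in brain, for Slc1a2 at row 10637 (-0.088), Aqp4 (-0.12) and Gsn (0.44) in liver, and for Slc1a2 at row 16811 (0.46), Gsn (0.34) and Mal (0.096) in the liver-minus-brain difference. With the arrays centred, the sign turned for Gfap (-0.00038) in brain, and for Slc1a2 at row 16811 (0.015) in the liver-minus-brain difference. With the arrays centred and scaled, the sign turned for Gfap (-0.026) in brain, for Mal (-0.12) in liver, and for Slc1a2 at row 16811 (0.021) in the liver-minus-brain difference. With 1 array of a pair allowed, the sign turned for Mt3 (0.60) in brain. Without ratios beyond 10, the sign turned for Agrn (-0.021) and Avil (1.26) in brain. With the probes of a gene averaged, the sign turned for Slc1a2 at row 10637 (-0.10) in liver, and for Slc1a2 at row 16811 (0.12) in the liver-minus-brain difference. With no row offset, where each name points to another probe, the sign turned for Aqp4 (0.056), Mag (-0.047), Mt3 (0.068), Slc14a1 (-0.14), Mobp (0.53), Olig2 (-0.097), Slc1a1 (-0.52), S100a8 (0.090), Marveld1 (0.44), Mbp (0.048), Slc1a3 (0.040), Fgfr1 (0.032) and Capg (-0.10) in brain, for Slc1a2 at row 10637 (-0.063), Fgfr3 (-0.23), Aqp4 (-0.099), Gsn (0.47) and Mal (-0.24) in liver, and for Slc1a2 at row 16811 (1.29), Fgfr3 (-0.13), Aqp4 (-0.15) and Gsn (0.46) in the liver-minus-brain difference. Leaving out 1 mouse at a time turned the sign at least once, over the ranges given, for Slc1a2 at row 10637 (-0.26 to 0.013), Slc1a2 at row 16502 (-0.16 to 0.051), Slc1a2 at row 16811 (-0.29 to 0.033), Cnp (-0.20 to 0.042), Hapln2 (-0.10 to 0.45), Agrn (-0.022 to 1.44), Avil (-2.54 to 1.26), Siglec1 (-0.72 to 0.21), Gfap (-0.14 to 0.17), Slc1a3 (-0.16 to 0.065), Fgfr1 (-0.12 to 0.053), Capg (-0.13 to 0.31) and S100a1 (-0.0045 to 0.12) in brain, for Slc1a2 at row 9656 (-0.18 to 0.066), Slc1a2 at row 10637 (-0.027 to 0.046), Aqp4 (-0.054 to 0.15), Gsn (-0.087 to 0.083) and Mal (-0.27 to 0.13) in liver, and for Slc1a2 at row 16811 (-0.23 to 0.13) and Mag (-0.14 to 0.25) in the liver-minus-brain difference.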
